A study of Mus musculus with 4 samples.

Results

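Thrombospondin-1 (Thbs1) and 8 genes of the TGF-beta pathway were followed in single cells of mouse sarcomas from vehicle- and digoxin-treated mice. The 9 genes, of 18220 named in the expression tables, were picked by symbol: Thbs1, the ligands Tgfb1, Tgfb2 and Tgfb3, the receptors Tgfbr1 and Tgfbr2, the induced matrix gene Tgfbi, and the feedback genes Smad7 and Skil. All 9 were measured in both the malignant and the non-malignant cells. They were picked with results of these data already known, in particular the higher Thbs1 in NK cells of digoxin-treated mice, so Thbs1 in NK cells is described below without a test.

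The tumors were allografts grown in the hind limb, with the genotype KrasLSL-G12D/+;Trp53flox/flox and the strain 129/SvJae given for all 4 mice. The 2 vehicle mice received PBS, and the 2 digoxin mice received 2 mg/kg digoxin, an inhibitor of the sodium pump, dissolved in DMSO before dilution in PBS. Injections were intraperitoneal, every 24 h, and tumors were taken after dose 4. The cell line or clone behind the allografts and the age of the mice are not given in the labels. Each tumor gave 1 library of 3′ single-cell RNA-seq, in which each captured transcript is counted once as a unique molecular identifier (UMI).

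The tables held 31611 cells. A mouse contributed 3976 to 6269 malignant cells (median 46799 to 57658 UMIs per cell) and 3014 to 3344 non-malignant cells (median 15837 to 16671 UMIs). Of the barcode sequences, 113 occurred in 2 or more libraries, and 1404 cells (4.44%) were marked as likely doublets. The vehicle mice differed from each other: in the non-malignant cells, Xist stood at 722 CPM (UMIs of a gene per 1000000 UMIs of a cell, averaged over the cells of a mouse) in vehicle replicate 1 and 6.09 in replicate 2, and the Y-linked Ddx3y at 1.77 and 86.0, while the digoxin mice had Xist at 817 and 788 CPM and Ddx3y at 1.72 and 2.14 CPM. A fit without vehicle replicate 1 has the mouse with low Xist as its only vehicle mouse. Digoxin and this difference between mice cannot be told apart there. Cell types are those the authors deposited. The cells named Epithelial had endothelial markers (Cdh5 888 and Pecam1 841 CPM on average) and almost no Epcam (0.122 CPM), and those named Microglia had the plasmacytoid dendritic marker Siglech at 2449 CPM against 1.43 CPM for Tmem119, so both names are used here only as labels. The other tested types held their defining markers, such as Ncr1 in NK (794 CPM), Cd3g in T cells (1198) and Col3a1 in Fibroblast (15823). Acp5 stood at 11381 CPM in Osteoclasts and C1qa at 2119 and 5395 CPM in M1 and M2. The 30 cells named Unknown, all from vehicle replicate 2, count among all non-malignant cells but were not tested alone.

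As background, TGF-beta ligands are secreted in a latent complex and are held inactive until integrins, proteases or thrombospondin-1 release them. The free ligand joins Tgfbr2 to Tgfbr1, which phosphorylates SMAD proteins that enter the nucleus and switch on genes such as Tgfbi and Smad7. In tumors the pathway is known for matrix production by fibroblasts and for restraining lymphocytes, and thrombospondin-1, a matrix glycoprotein of platelets, macrophages and stromal cells, is also known as an inhibitor of blood vessel growth.

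The 9 genes lie on different chromosomes of GRCm38. Thbs1 is at chr2:118111876-118127133 (plus strand), Tgfb1 at chr7:25687002-25705077 (plus), Tgfb2 at chr1:186622792-186705989 (minus) and Tgfb3 at chr12:86056745-86079041 (minus). The receptor genes are Tgfbr1 at chr4:47353222-47414931 (plus) and Tgfbr2 at chr9:116084293-116175360 (minus). Tgfbi is at chr13:56609523-56639562 (plus) and Skil at chr3:31095058-31122577 (plus). All are protein-coding, and intervals span the whole gene, exons and introns.

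Differences are digoxin minus vehicle on the log2(CPM + 1) scale, which understates the change of low genes, and were tested with limma over all genes of a population, 2 mice against 2. A gene was called at a Benjamini-Hochberg adjusted p under 0.05. Nothing in the labels says whether the mice of a group were separate experiments, so p-values measure the spread between these mice. For a single value, an exact two-sided permutation test of 2 against 2 cannot go below 0.333 and was not used.

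Thbs1 was highest, among the tested populations, in the macrophages that the authors named M1. Its level there was 1097 and 768 CPM with vehicle and 1770 and 1866 CPM with digoxin. In each mouse this was 3.49 to 6.62 times the level in the M2 macrophages. Over the 4 mice the order of the mean levels ran from M1 (1375 CPM) through Fibroblast (720 CPM), M2 (236), Highly proliferative M2 (185), malignant cells (156), Epithelial (122), T cell (101), Microglia (65.7) and NK (28.9) to Osteoclasts (23.9). Only Fibroblast and M2 had ranges that did not overlap with each other among neighbours in this order, so the rest of the order is not resolved neighbour by neighbour. Neutrophils, with 5 to 34 cells per mouse, were too few to test and had 2308 and 2937 CPM with vehicle and 1732 and 3257 CPM with digoxin.

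**Figure D1:**
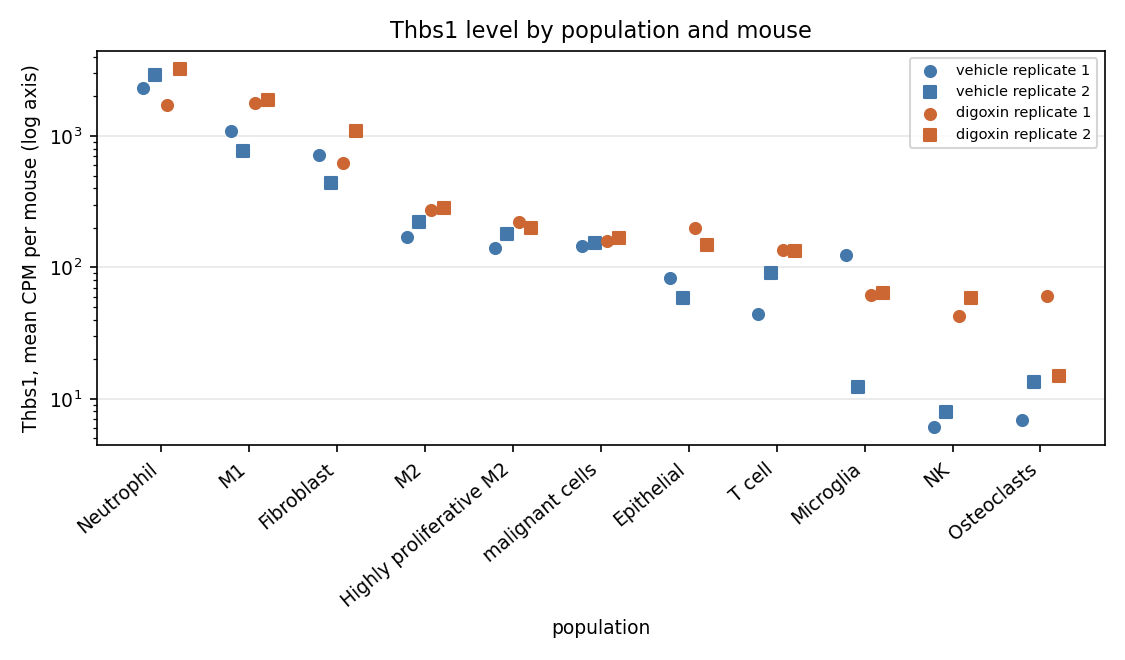
Thbs1 level in each population, as mean CPM per mouse on a log axis; circles are replicate 1, squares replicate 2, blue vehicle and orange digoxin. Both digoxin points lie above both vehicle points in 7 of the 9 tested populations other than NK and also in NK; the Neutrophil column, from 5 to 34 cells a mouse, overlaps.

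Leaving out NK cells, whose value led to the choice of Thbs1, both digoxin mice had more Thbs1 than both vehicle mice in 7 of the 9 tested populations that share no cells, and less in 0. The exceptions were Fibroblast and Microglia, where the mice overlapped. Dendritic cells, with 10 to 21 cells per mouse, were too few to test, and Thbs1 there was lower in both digoxin mice, at 211 and 29.9 against 13.9 and 0 CPM. In these 9 populations, 10.1% (Fibroblast) to 21.6% (Osteoclasts) of all tested genes stood higher in this way. The populations come from the same 4 mice and are not independent. Thbs1 passed the test across all genes in 1 of the 9, Epithelial.

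In M1 macrophages the mean was 933 ± 232 CPM with vehicle and 1818 ± 67.8 CPM with digoxin (SD, n = 2 each), a log2 difference of 0.98 (SE 0.174). It did not pass (limma adjusted p 0.464), and 0.0% of the 12182 genes in M1 did. DESeq2 on the same UMIs called it (adjusted p 9.93e-05, with 0.296% of genes called). Without vehicle replicate 1 the limma difference was 1.24, with the low-Xist mouse alone as vehicle. Without vehicle replicate 2, the mouse with low Xist, the difference was 0.73. Beside it, the summed macrophage markers in M1 were lower with digoxin, 5732 and 7247 against 4985 and 5588 CPM, and 3 of 6 were lower in both digoxin mice while Cd68 was higher (410 and 387 against 455 and 479 CPM). The sum of 10 dissociation response genes was 7854 and 7875 against 7459 and 6184 CPM, with 4 lower and 2 higher in both digoxin mice. The platelet gene Ppbp was higher in M1, at 33.7 and 4.16 CPM with vehicle and 53.0 and 87.0 CPM with digoxin, and the neutrophil marker sum was 64.0 and 60.2 against 118 and 87.9 CPM. The part of these genes in the Thbs1 difference was not tested.

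The other macrophages showed differences in the same direction, smaller with all 4 mice, and the size was not tested between the sub-clusters. M2 cells had 172 and 220 CPM with vehicle and 272 and 282 CPM with digoxin (log2 0.51, SE 0.156). Highly proliferative M2 cells had 141 and 179 against 222 and 198 CPM (log2 0.39, SE 0.134). Neither passed. Without vehicle replicate 1, which leaves the low-Xist mouse as the only vehicle mouse, the differences were 0.33 in M2 and 0.22 in Highly proliferative M2. Without vehicle replicate 2 they were 0.69 in M2 and 0.56 in Highly proliferative M2, against 0.73 in M1. The dissociation response sum in M2 was 9828 and 9394 CPM with vehicle and 9334 and 7254 CPM with digoxin, with 3 of 10 genes lower, and its part was not tested. Over all macrophages the values were 586 and 375 against 979 and 944 CPM (log2 1.03, SE 0.204, limma adjusted p 1.00 over 13734 genes, 0.0% called). DESeq2 called it there (adjusted p 0.00568, with 0.146% of genes called). The limma difference was 1.35 without vehicle replicate 1, with the low-Xist mouse alone as vehicle, and 0.71 without vehicle replicate 2. M1 cells made up 45.3% and 29.0% of the macrophages with vehicle and 47.6% and 42.5% with digoxin. Vehicle replicate 2 had the lowest M1 share and the lowest Thbs1 over all macrophages. It was also lowest within M1 (768 CPM), but in M2 it stood above vehicle replicate 1 (220 against 172 CPM). The part of the M1 share was not tested. Over all macrophages the neutrophil marker sum was 56.6 and 44.8 against 87.6 and 64.1 CPM, and the platelet sum 16.2 and 3.13 against 26.7 and 38.8 CPM. The dissociation response sum was 8558 and 8726 against 8222 and 6650 CPM, with 4 of 10 genes lower. The part of these 3 lists was not tested.

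Malignant cells, the largest population, differed little. Thbs1 there was 145 and 154 CPM with vehicle and 158 and 168 CPM with digoxin. The mice did not overlap, but the log2 difference was 0.12 (SE 0.0722) and did not pass, and the mice overlapped once doublets or cells with macrophage markers were left out. The difference in malignant cells minus that in all non-malignant cells (503 and 324 against 846 and 847 CPM, log2 1.07) was -0.94 (SE 0.246) with the mouse as a block. That had an unadjusted p of 0.00895 but an adjusted p of 0.979 in limma, and 0.0% of 14445 genes passed, so a difference between the compartments was not shown. Within all non-malignant cells limma did not call Thbs1 (adjusted p 0.975), while DESeq2 did, with 0.202% of genes called. The neutrophil marker sum there was 161 and 51.5 against 1306 and 234 CPM, and the mast cell sum 1.47 and 18.4 against 122 and 142 CPM. The neutrophils numbered 11 and 5 against 34 and 23 cells. The platelet sum was 13.4 and 2.95 against 22.7 and 33.4 CPM. The dissociation response sum was 7761 and 7875 against 7590 and 6348 CPM, with 4 of 10 genes lower. The part of these cells and genes was not tested.

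In the Epithelial cells, which carry endothelial genes, Thbs1 rose. The vehicle mice had 83.5 and 58.8 CPM and the digoxin mice 200 and 147 CPM, means of 71.1 ± 17.5 and 173 ± 37.2 (SD, n = 2 each). The log2 difference was 1.28 (SE 0.209, limma adjusted p 0.0300), in a population where 0.467% of 10272 genes passed. The call was lost in edgeR (adjusted p 0.880) and DESeq2 (0.636), with CPM of summed UMIs (0.858), with no filter on low genes (0.132), without cells over 20% mitochondrial UMIs (0.0738) and without either digoxin mouse (0.324 and 0.0868). Markers of macrophages, mast cells and platelets and genes of the dissociation response moved with Thbs1. The macrophage marker sum was 200 and 363 CPM with vehicle and 459 and 398 CPM with digoxin (4 of 6 genes higher), and the mast cell sum was 0 and 176 against 4623 and 5224 CPM (4 of 4 higher). The platelet sum was 5.43 and 7.03 against 21.8 and 10.9 CPM. Of 10 genes that tissue dissociation is known to induce, 5 were higher in both digoxin mice and 0 lower (median log2 0.31, against 0.00 over all genes), while their sum overlapped. The part of the platelet and dissociation genes was not tested. Without the cells bearing 3 or more macrophage markers, Thbs1 was 74.9 and 52.4 against 145 and 102 CPM (log2 0.95, adjusted p 0.183), and without cells bearing mast cell markers it was 83.5 and 59.4 against 206 and 143 CPM (adjusted p 0.291). The digoxin mice stayed above the vehicle mice under both.

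NK cells had very little Thbs1 with vehicle, 6.07 and 7.99 CPM, and 42.9 and 58.8 CPM with digoxin. The log2 difference was 2.68 (SE 0.295), given as a description since it prompted the choice of the gene. In NK cells, 0.0765% of 9147 genes were called. The counts behind it were small and sat in few cells. There were 14 and 12 Thbs1 UMIs with vehicle and 170 and 238 with digoxin, of which a single cell held 96 and 123. Cells with 3 or more of 6 macrophage markers, 12 and 15 of the NK cells of the digoxin mice, held 154 and 215 of those UMIs. Without them the level was 4.87 and 5.47 CPM with vehicle and 8.89 and 16.1 CPM with digoxin (log2 1.08, SE 0.443). Without doublets it was 4.77 and 8.11 against 8.64 and 41.5 CPM (log2 1.48, SE 0.582). The summed macrophage markers in NK cells were 242 and 258 CPM with vehicle and 240 and 452 CPM with digoxin, so the sums overlapped, but 3 of 6 genes (Adgre1, Csf1r and Cd68) were higher in both digoxin mice and 0 lower. The neutrophil marker sum was 3.08 and 0.489 against 15.7 and 5.65 CPM.

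In T cells, too, most Thbs1 UMIs lay in cells with macrophage markers. Thbs1 was 43.8 and 91.3 CPM with vehicle and 136 and 133 CPM with digoxin (log2 1.08, SE 0.295, limma adjusted p 0.979). Of its UMIs, 164 of 170 and 195 of 201 with vehicle, and 307 of 322 and 188 of 272 with digoxin, lay in cells with 3 or more macrophage markers. Without those cells the level was 4.21 and 10.8 against 15.3 and 52.5 CPM, digoxin still above vehicle but at much lower levels (log2 1.91, SE 0.594; adjusted p 0.941 in limma). The neutrophil marker sum in T cells was 5.80 and 18.1 CPM with vehicle and 38.5 and 123 CPM with digoxin, with 3 of 4 genes higher in both digoxin mice, and its part was not tested. The Thbs1 difference in T cells was 1.60 without vehicle replicate 2 and 0.56 without vehicle replicate 1, each with 1 vehicle mouse left. With all 4 mice and no replicate block, limma called 0.0% of the T cell genes. With the replicate number as a block limma called 57 of 8930 genes, Thbs1 among them (adjusted p 0.000352). The labels do not say what mice of the same number share.

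**Figure D2:**
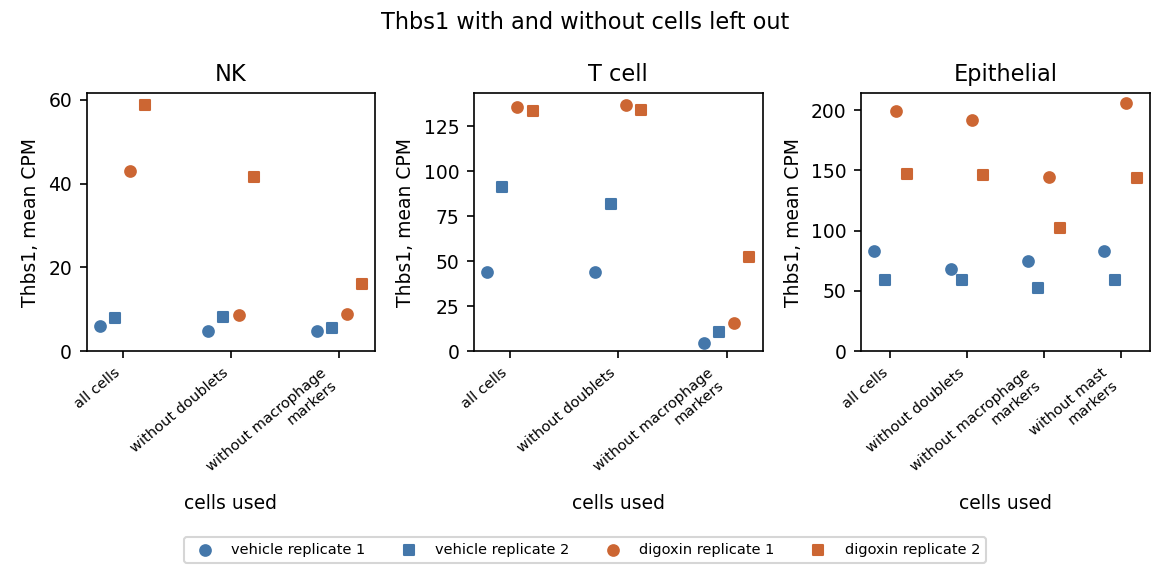
Thbs1 as mean CPM per mouse in NK cells, T cells and Epithelial cells, with all cells and with doublets or with cells carrying macrophage or mast cell markers left out; each point is 1 mouse. In T cells the levels drop to between 4.21 and 52.5 CPM once cells with macrophage markers are left out, and in NK cells to between 4.87 and 16.1 CPM.

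The remaining populations gave wide or overlapping values. Fibroblast Thbs1 was 711 and 439 CPM with vehicle and 627 and 1101 CPM with digoxin. Microglia had 125 and 12.3 against 61.1 and 64.1 CPM. Thbs1 was called in neither population with all mice. Without vehicle replicate 1, with the low-Xist mouse alone as vehicle, the differences were log2 0.92 in Fibroblast and 2.26 in Microglia. The Microglia difference was negative, with overlapping mice, without doublets (log2 -0.71) and without cells with macrophage markers (log2 -1.84, at 95.1 and 12.6 against 6.07 and 13.4 CPM). Osteoclasts had 6.88 and 13.5 against 60.5 and 14.9 CPM (log2 1.55, SE 0.563), with a single digoxin mouse far above the rest. In that mouse 62 of 82 Thbs1 UMIs lay in 1 cell, and the difference was 0.58 without it and 2.53 without the other digoxin mouse. Of the Osteoclasts genes 0.0128% were called by limma, and Thbs1 was not among them.

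Among the 10 tested populations Tgfb1 was highest in M1 and NK cells, whose ranges overlapped. Tgfb2 and Tgfb3 were highest in Fibroblast. Tgfb1, the form most used by leukocytes, was at 363 CPM in M1 and 362 CPM in NK cells and lowest in malignant cells (34.8 CPM), means of the 4 mice. Tgfb2 was concentrated in Fibroblast (85.6 CPM), then Epithelial (19.6) and malignant cells (15.6), and was at 1.10 CPM or less in the other 7 tested populations. Tgfb3 was highest in Fibroblast (114 CPM), then malignant cells (42.2 CPM), and under 10 CPM in every other tested population.

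**Figure D3:**
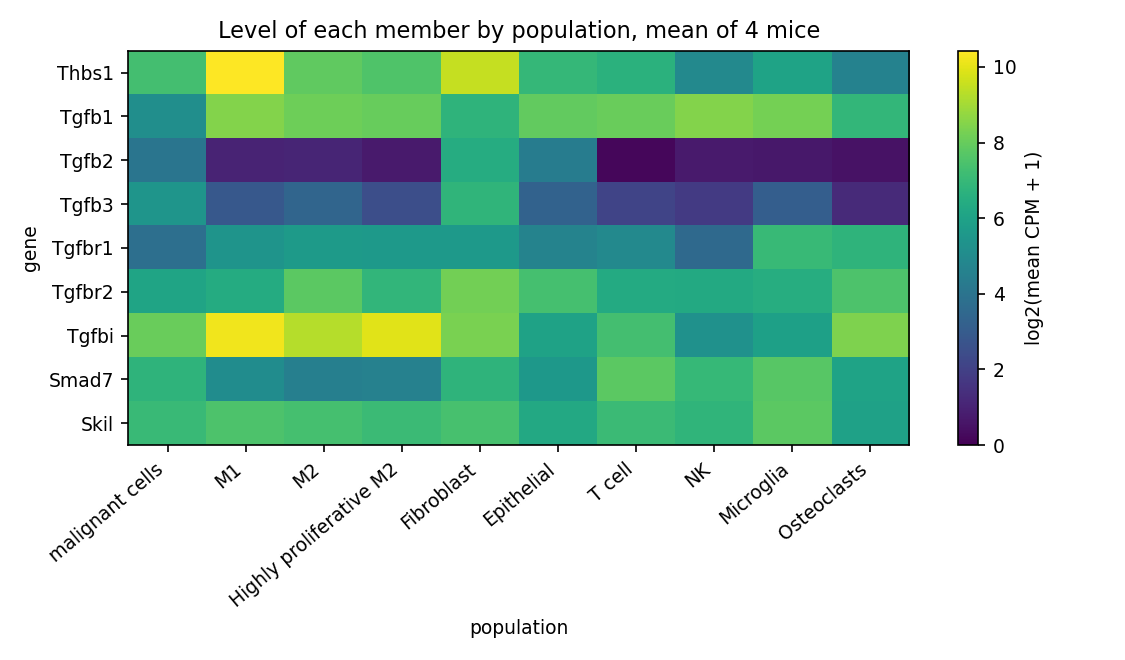
Mean level over the 4 mice of each of the 9 genes (rows) in the 10 populations (columns), as log2(mean CPM + 1). Thbs1 (1375 CPM) and Tgfbi (1168 CPM) are brightest in M1, and Tgfb2 and Tgfb3 in Fibroblast; levels of different genes are not to be compared, since 3′ counts depend on the gene.

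The promoters of Tgfb1 and Tgfbi are shown because their genes, a ligand and a gene that the ligands induce, both stood lower in malignant cells of digoxin-treated mice. Each is the RefSeq GRCm38.p6 window from 250 bases before the start in RefSeq to 50 after it, plus strand. For Tgfbi that start is not the gene start given above. Every CAGAC (a half-site that SMAD proteins can bind) or GGGCGG (a GC box) is in capitals, on either strand.

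Tgfb1 chr7:25686752-25687051: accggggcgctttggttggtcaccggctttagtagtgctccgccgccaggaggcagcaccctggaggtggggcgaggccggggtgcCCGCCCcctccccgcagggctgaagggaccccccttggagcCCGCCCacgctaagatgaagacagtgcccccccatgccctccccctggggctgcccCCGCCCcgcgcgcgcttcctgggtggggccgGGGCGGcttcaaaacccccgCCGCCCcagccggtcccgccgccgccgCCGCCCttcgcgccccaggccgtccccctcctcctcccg

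Tgfbi chr13:56609336-56609635: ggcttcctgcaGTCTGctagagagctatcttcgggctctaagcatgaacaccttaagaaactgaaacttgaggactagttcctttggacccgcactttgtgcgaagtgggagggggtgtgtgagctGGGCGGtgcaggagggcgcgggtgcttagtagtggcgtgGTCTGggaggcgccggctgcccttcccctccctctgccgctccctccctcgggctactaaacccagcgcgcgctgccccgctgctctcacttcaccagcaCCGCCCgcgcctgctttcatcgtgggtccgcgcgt

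Tgfb1 has 6 GC boxes and 0 CAGAC in this window, with a G+C content of 77.0%, while Tgfbi has 2 of each and 63.3%. Of 32851 mouse promoter windows of 300 bases, 35.7% hold a GC box and 49.6% a CAGAC. The AP-1 site TGACTCA was found in neither window and is in 5.2% of all windows. These matches describe letters only. Windows were matched for 5 of the 9 genes, also Tgfb2, Tgfbr1 and Tgfbr2.

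In malignant cells the ligands Tgfb1 and Tgfb3, Tgfbi and the feedback genes were lower in both digoxin mice, by small amounts that did not pass. Of the 9 genes, 5 were lower in both digoxin mice, 1 (Thbs1) higher and 3 overlapped. Over all 17138 genes, 16.5% were lower and 12.8% higher in this way. The median log2 difference of the 9 genes was -0.13, against -0.01 over all genes. Of the 9, 0 were called by limma (0.0% of genes were), edgeR or DESeq2. In limma 2 had an unadjusted p under 0.05, as had 585 of all 17138 genes.

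Tgfb3 had the widest gap of the 5, with 53.0 and 45.7 CPM with vehicle and 40.5 and 29.4 CPM with digoxin. Its log2 difference was -0.50 (SE 0.165, unadjusted p 0.0257, adjusted p 1.00 in limma). Tgfb1 stood at 40.7 and 35.0 against 33.5 and 30.1 CPM, a difference of -0.24 (SE 0.106). Neither ligand passed the test, although the mice did not overlap.

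The induced and feedback genes showed the same side. Tgfbi, a secreted adhesion protein, was 279 and 288 CPM with vehicle and 265 and 227 CPM with digoxin (log2 -0.21, SE 0.0929). Skil, a repressor of SMAD complexes that SMADs themselves switch on, was 148 and 141 against 129 and 113 CPM (log2 -0.26, SE 0.0853, unadjusted p 0.0257). Smad7, which blocks the receptor, was 119 and 107 against 104 and 105 CPM (log2 -0.11, SE 0.0773). Among the malignant receptors, Tgfbr1 was 12.5 and 14.4 against 13.5 and 11.99 CPM. Tgfbr2 was 71.1 and 66.8 against 67.0 and 62.8 CPM, so both overlapped, Tgfbr2 narrowly. Leaving out 1 mouse at a time, the differences in malignant cells ranged from -0.73 to -0.28 for Tgfb3, -0.35 to -0.13 for Tgfb1, -0.32 to -0.10 for Tgfbi, -0.35 to -0.17 for Skil and -0.18 to -0.03 for Smad7. The values nearest 0 were without digoxin replicate 2 for Tgfb3, Tgfbi and Skil, and without vehicle replicate 1 for Tgfb1 and Smad7. Markers of other cells moved in the malignant cells too. The macrophage marker sum was 293 and 269 CPM with vehicle and 213 and 214 CPM with digoxin, and 5 of 6 of its genes were lower in both digoxin mice. The neutrophil sum was 11.0 and 11.4 against 31.0 and 18.8 CPM. Of the 10 dissociation response genes, 3 were lower and 1 higher in both digoxin mice (median log2 difference -0.19). Without doublets, and without cells with macrophage markers, Tgfb1, Tgfb3, Tgfbi, Skil and Smad7 kept their direction and none was called. The part of the neutrophil and dissociation genes was not tested.

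**Figure D4:**
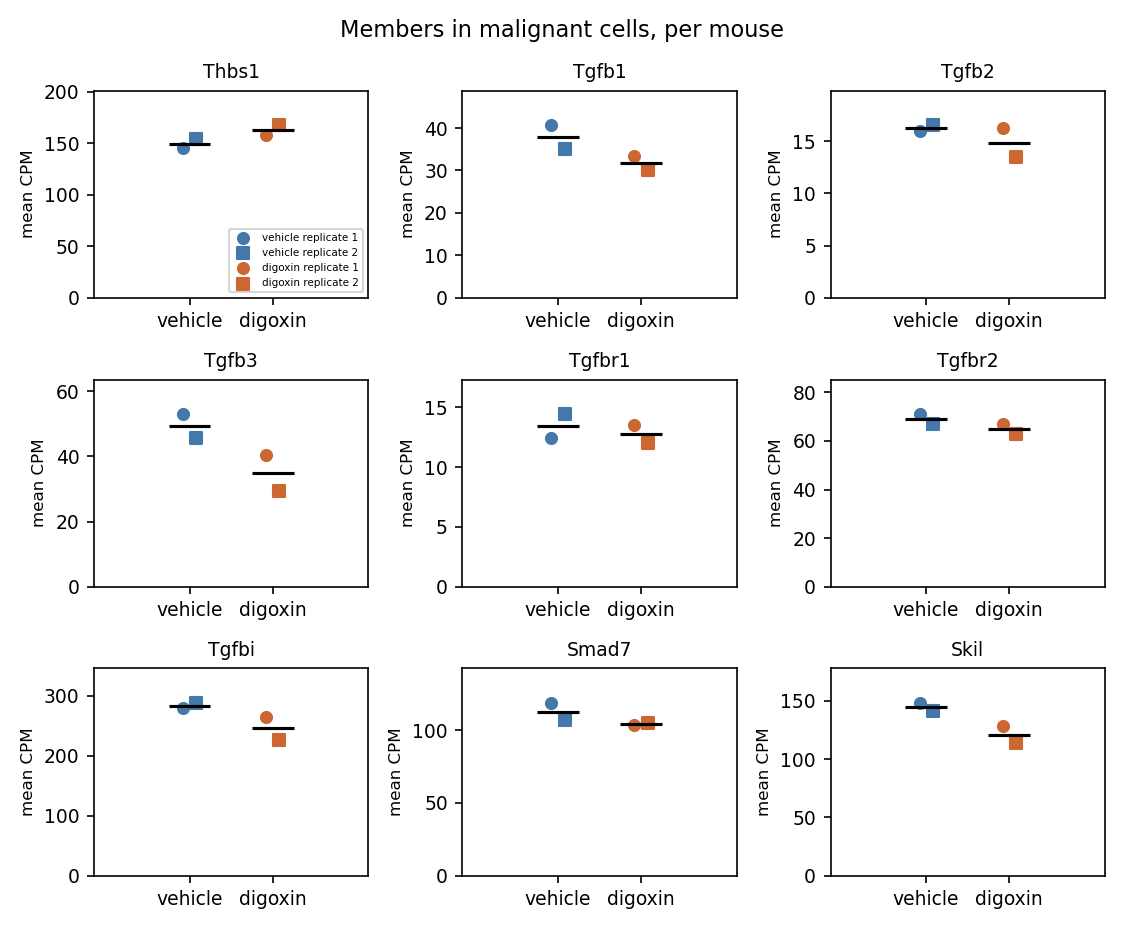
Level of each of the 9 genes in malignant cells, mean CPM per mouse with the axis from 0; each point is 1 mouse and the black line the mean of the 2 mice. Tgfb1, Tgfb3, Tgfbi, Smad7 and Skil are lower in both digoxin mice, and Thbs1 is higher in both.

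The wider pathway was examined through 61 genes in 7 lists. In malignant cells 0 of 61 were called by limma, edgeR or DESeq2. In limma 10 had an unadjusted p under 0.05, as had 585 of all 17138 genes. In both digoxin mice 17 stood lower and 3 higher, where 16.5% and 12.8% of all genes did. The median was -0.09 against -0.01 over all genes. Of the 16 target genes of TGF-beta, 8 were lower and 1, the cell cycle inhibitor gene Cdkn1a, higher (median -0.15). The collagen gene Col1a1 was 1905 and 1755 CPM with vehicle and 1506 and 1335 CPM with digoxin. Fibronectin (Fn1) was 662 and 698 against 569 and 487 CPM. The most abundant target, Junb, overlapped at 2408 and 2903 against 2666 and 2369 CPM, as did Pmepa1 at 351 and 298 against 352 and 316 CPM. Of 3 ligand traps, the matrix proteoglycans Dcn (1803 and 2191 against 1610 and 1301 CPM) and Bgn (1731 and 1751 against 1543 and 1285 CPM) were lower. Among the 13 latency and release genes, 3 were lower, including Fbn1, the fibrillin that anchors latent complexes, at 201 and 158 against 153 and 135 CPM. The thrombospondin receptors Calr, Cd47 and Lrp1 overlapped. The fibroblast marker sum, 2 of whose 4 genes (Dcn among them) were lower in both digoxin mice, was 4061 and 4496 against 3474 and 3000 CPM.

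In M1 macrophages the receptors were lower and the target gene Tgfbi differed little. Tgfbr1 was 41.4 and 54.4 CPM with vehicle and 37.7 and 31.6 CPM with digoxin (log2 -0.45, SE 0.163). Its unadjusted limma p was 0.0287 (adjusted p 0.579), and the difference was -0.26 without vehicle replicate 2. Tgfbr2 was 89.5 and 95.6 against 78.0 and 74.7 CPM (log2 -0.27, SE 0.101, unadjusted p 0.0308). Tgfbi was 1193 and 1230 against 1192 and 1059 CPM, a log2 difference of -0.11 (-0.19 to -0.024 leaving out 1 mouse at a time). Skil was 186 and 193 against 177 and 173 CPM (log2 -0.11). In all, 4 of the 9 genes were lower in both digoxin mice and 1 higher, where 24.0% and 15.3% of all M1 genes were. None of the 4 lower genes was called by limma.

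Of the 4 thrombospondin receptors in M1, 3 were higher in both digoxin mice (Lrp1, Calr and Cd36), Cd47 overlapped, and 0 were called. Lrp1, which takes up thrombospondin-1, was 279 and 267 CPM with vehicle and 353 and 351 CPM with digoxin (log2 0.36). Calr was 973 and 716 against 985 and 1084 CPM, and Cd36 58.1 and 15.9 against 58.2 and 66.0 CPM. Furin, the protease that cuts the ligand precursor, was 99.3 and 112 against 145 and 135 CPM (log2 0.39). Of the 57 pathway genes tested in M1, limma called 0, edgeR 0 and DESeq2 1, where DESeq2 called 0.296% of all M1 genes. In limma 5 had an unadjusted p under 0.05, as had 942 of all 12182 M1 genes. In both digoxin mice 16 were higher and 7 lower, where 15.3% and 24.0% of all M1 genes were.

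Counts of the 9 genes by population were small. A filter on low counts kept all 9 in most populations, 8 in Highly proliferative M2 (not Tgfb2) and 7 in NK, T cell, Microglia and Osteoclasts (not Tgfb2 or Tgfb3). In both digoxin mice, 1 was higher and 1 lower over all non-malignant cells, where 12.4% and 20.6% of all genes were, and 2 and 2 over all macrophages (13.6% and 17.3%). The counts were 3 higher and 1 lower in M2 (15.0% and 11.7% of genes), 1 and 2 in Highly proliferative M2 (17.4% and 12.6%), and 1 and 1 in T cells (14.3% and 19.0%). They were 3 and 1 in Epithelial (17.8% and 16.3%), 0 and 1 in Fibroblast (10.1% and 19.4%), 2 and 0 in Microglia (16.7% and 16.2%), and 2 and 0 in Osteoclasts (21.6% and 15.8%). In NK cells 2 were higher and 0 lower (19.1% and 16.9%). In NK cells 1 of the 2 was Thbs1, whose value led to its choice.

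Receptor levels differed in the other cells without being called. Among all 10 populations Tgfbr2 was highest in Fibroblast (298 CPM), then M2 (223 CPM), and lowest in malignant cells (66.9 CPM). Tgfbr1 was highest in Microglia (130 CPM) and Osteoclasts (108 CPM) and lowest in NK cells (10.8 CPM). In Epithelial cells Tgfbr1 was 17.1 and 16.6 CPM with vehicle and 30.5 and 34.5 CPM with digoxin (log2 0.91, SE 0.264, adjusted p 0.354). There Tgfbr2 stood lower, at 159 and 217 against 141 and 140 CPM (log2 -0.40, SE 0.167). Leaving out 1 mouse at a time, its difference ranged from -0.62, without vehicle replicate 1, to -0.18. Fibroblast Tgfbr2 was 325 and 324 against 264 and 280 CPM (log2 -0.26), and Microglia Tgfbr2 72 and 82.4 against 120 and 85.9 CPM (log2 0.39). T cell Tgfbr1 was 32.0 and 30.6 against 24.0 and 28.5 CPM (log2 -0.25). Without single mice, Microglia Tgfbr2 ranged from 0.16 to 0.63 and T cell Tgfbr1 from -0.37 to -0.13. Over all macrophages Tgfbr2 was 153 and 168 against 147 and 137 CPM (log2 -0.17) and Smad7 26.1 and 28.2 against 25.7 and 24.9 CPM (log2 -0.09). Over all non-malignant cells Tgfbr2 was 149 and 166 against 140 and 134 CPM (log2 -0.20). None of these 3 passed.

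Tgfbi and the feedback genes also differed between the 10 tested populations, which leave out neutrophils (Tgfbi 1110 and Skil 286 CPM) and dendritic cells (Skil 273 CPM). Among the tested populations Tgfbi was highest in M1 (1168 CPM), Highly proliferative M2 (989) and M2 (623 CPM) and lowest in NK cells (37.2 CPM). Smad7 was highest in T cells (222 CPM) and Microglia (212 CPM) and lowest in M2 (21.6 CPM). Of the same 10, Skil was highest in Microglia (223 CPM) and lowest in Osteoclasts (62.0 CPM). In NK cells Tgfbi was 30.2 and 19.7 CPM with vehicle and 53.0 and 46.0 CPM with digoxin (log2 0.99, SE 0.244). It was not called (limma adjusted p 0.401) and kept this side without cells with macrophage markers (log2 1.06). Leaving out 1 mouse at a time gave 0.69 to 1.28, the latter without vehicle replicate 1, with the low-Xist mouse alone as vehicle. In Highly proliferative M2, Smad7 was 24.2 and 28.3 against 19.1 and 19.3 CPM (log2 -0.43, SE 0.153). Skil there was 154 and 141 against 132 and 114 CPM (log2 -0.27). Small non-overlapping differences of Smad7 in M2 (log2 -0.17), of Tgfb1 in M2 (0.08) and Microglia (0.21), and of Skil in Epithelial (0.19) did not pass. Without single mice, Tgfb1 in Microglia ranged from 0.12 to 0.30 and Skil in Epithelial from 0.06 to 0.32.

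**Figure D5:**
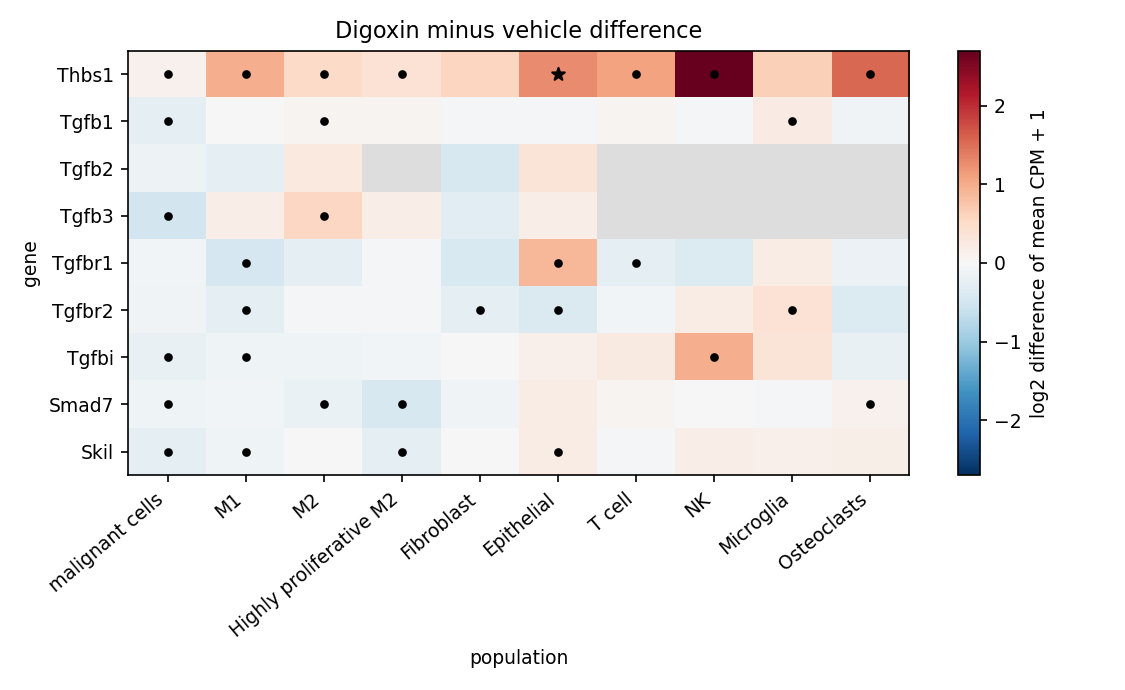
Digoxin minus vehicle log2 difference (colour) of each of the 9 genes in the 10 populations; grey marks a gene not tested, a dot marks groups of mice that do not overlap, and the star marks the gene that passed the limma test, Thbs1 in Epithelial (Thbs1 in NK, whose value led to the choice of the gene, is shown as a description and bears a dot). Thbs1 bears a dot or the star in 7 of the 9 populations other than NK.

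In the wider lists limma called 0 genes in each of the 12 populations tested. At an unadjusted limma p under 0.05, the lowest count was 1 of 41 in T cells, where 382 of all 8930 genes were. The highest was 10, in malignant cells (of 61, against 585 of 17138 genes) and NK (of 39, against 574 of 9147). It was also 10 in Epithelial (of 54, against 593 of 10272) and Osteoclasts (of 36, against 498 of 7803). DESeq2 called 1 in M1 (36 of all 12182 genes) and 1 in Highly proliferative M2 (13 of 11459), and edgeR 2 in NK cells (17 of 9147). With summed UMIs limma called 1 in NK (9 of 9147 genes), and with a pseudocount of 5 it called 1 in Epithelial (62 of 10272). With the replicate number as a block limma called 2 in NK (23 of 9147 genes) and 1 in Epithelial (85 of 10272). Leaving out vehicle replicate 1 raised the number called in every population but Osteoclasts, in the lists and over all genes alike. The low-Xist mouse was then the only vehicle mouse. In the lists, leaving out any other mouse raised it in fewer populations. In NK cells the nearest was Lrp1, at 6.90 and 4.82 CPM with vehicle and 23.3 and 26.9 CPM with digoxin (log2 1.94, adjusted p 0.0741), and Pmepa1, a brake on SMAD signaling, was 127 and 123 against 186 and 204 CPM (log2 0.63, adjusted p 0.139). The neutrophil marker sum in NK cells was 3.08 and 0.489 against 15.7 and 5.65 CPM, 3 of 6 macrophage markers were higher in both digoxin mice, and their part was not tested. Over all NK genes limma called 7, and 0 without doublets or 2 without cells with macrophage markers. Of the 39 genes tested there, 12 were higher and 4 lower in both digoxin mice, where 19.1% and 16.9% of all NK genes were. In Fibroblast, 14 of 55 were lower and 4 higher, against 19.4% and 10.1% of all genes, and 7 of the 16 target genes were lower, among them Fn1 (3711 and 2963 against 2873 and 2601 CPM).

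Genes whose levels ran most like Thbs1 over the 10 populations and 4 mice, 40 points, were Fn1 (Pearson r 0.914), Nrg1 (0.912), Ier3 (0.909), Ptgs2 (0.909) and Cxcl1 (0.867), of 9282 genes compared. For Tgfbi they were Hacd4 (0.903), Mmp19 (0.902), Rab32 (0.894), Pla2g4a (0.894) and Cxcl16 (0.888). The 40 points share 4 libraries and the cell type differences, and each r is a description.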

How the data were processed

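The members, the pathway lists and the markers were chosen with earlier results of these data known. The deposited expression values are natural log (ln) values of 1 + UMIs per 10000 UMIs of a cell, from Cell Ranger 3.0.2, Seurat 3.0.2 and the build mm10 per the submitters' processing notes, which give no role for each. UMI counts were recovered from these deposited ln values, and 100% were whole within 0.01 and summed to the deposited UMI total in every cell, 18963 of them malignant and 12648 not. Cell types are the authors' deposited labels. Cells whose barcodes start with the prefix of the third vehicle library belong to vehicle replicate 2, by the deposited cell table.

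Values per mouse are means over cells of CPM, tested with limma 3.58.1 (trend) on log2(CPM + 1), after a filter on low counts (edgeR 4.0.16), in populations of at least 20 cells per mouse. The genes named are the 9 members. A difference is printed where it was called, or where a group's mean CPM is at least 20 and the groups do not overlap. Those of Thbs1 in Fibroblast and Microglia are printed as well. Of the pathway lists, abundant genes are named, and some genes for their direction or p-value, such as Cdkn1a in malignant cells and Lrp1 in NK cells. Likeness uses the 5 highest correlations. Alternatives were edgeR, DESeq2 1.42.0, pseudocounts of 0.5 and 5, no filter, CPM of summed UMIs, a replicate block, and leaving out each mouse, Scrublet doublets (scanpy 1.11.5), cells over 20% mitochondrial UMIs, and cells with 3 or more of 6 macrophage or of 4 mast cell markers. The script was tested on simulated data.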

Additional observations from a re-analysis of the deposited data

Results flagged for a closer look

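For 5 pairs of populations, a gene stood lower in both digoxin mice among malignant cells and higher in both in another population. This count holds genes with a group mean of at least 20 CPM in each population, and the difference between populations was not tested. Under that limit, Tgfb3, lower in malignant cells, was higher in M2, at 8.26 and 6.74 CPM with vehicle and 10.0 and 13.3 CPM with digoxin. Tgfb1 was lower in malignant cells (log2 -0.24) and higher in M2 (0.081) and in Microglia (0.21). Tgfbi was lower in malignant cells (log2 -0.21) and higher in NK cells (0.99). Smad7 was lower in malignant cells (log2 -0.11) and higher in Osteoclasts (0.12). In Osteoclasts it was 62.7 and 61.1 CPM with vehicle and 62.8 and 72.0 CPM with digoxin. That difference was 0.021 to 0.21 leaving out 1 mouse at a time. Skil was lower in malignant cells (log2 -0.26) and higher in Epithelial (0.19), where it was -0.022 without cells with macrophage markers. No difference in this paragraph passed limma's threshold in either population.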

How the results depend on the processing

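Of 476 recomputed differences of 35, 450 kept their direction and their side of the threshold, 10 passed only under the alternative, 9 no longer passed, 6 moved beyond the spread between mice and 1 reversed: Skil in Epithelial, at log2 -0.022 without cells with macrophage markers, a setting added after seeing the data. Thbs1 in NK cells, log2 2.68, was 2.20 with a pseudocount of 5, 3.17 with summed UMIs, 3.39 in edgeR and 3.37 in DESeq2, and 1.48 without doublets and 1.08 without cells with macrophage markers; as a value with no test it is counted above by its size. The number of members called was 0 in most populations. With DESeq2 it was 1 in all non-malignant cells, Macrophage and M1. Leaving out single mice gave 0 to 1 in all non-malignant cells, Macrophage, M1, T cell, Fibroblast and Microglia, and 0 to 2 in Epithelial; a lone mouse is then assumed to vary like the others. In NK the count includes Thbs1, whose value led to its choice, so it is a description and no test: 1 with all cells, 1 to 2 without single mice, and 0 without doublets or without cells with macrophage markers. In Epithelial it was 0 under no filter, summed UMIs, edgeR, DESeq2, the mitochondrial limit, and without macrophage- or mast-marked cells. The cause of these changes was not tested. With the replicate block, 1 member was called in T cells (Thbs1, limma adjusted p 0.000352), where 57 of 8930 genes were. The labels do not say what mice of the same number share. Their deviations correlated at -0.36 in malignant cells to 0.06 in T cells, which cannot show whether a batch was shared. Calls over all genes moved more than those of the members. In Epithelial, 48 genes were called, 0 with edgeR, summed UMIs or without mast-marked cells, 6 with no filter, 15 with DESeq2, 26 under the mitochondrial limit, 30 without doublets, 85 with the replicate block and 12 to 344 without single mice. In NK, 7 were called, 0 without doublets, 2 without macrophage-marked cells, 17 with edgeR, 23 with the block and 12 to 107 without single mice. In Osteoclasts 1 was called, 0 with edgeR or summed UMIs, 6 with DESeq2, 3 with the block and 0 to 5 without single mice. Elsewhere 0 were called. DESeq2 called 44 in malignant cells, 36 in M1, 30 in all non-malignant cells, 20 in Macrophage, 13 in Highly proliferative M2, 9 in M2 and 1 each in Fibroblast and Microglia, and the block gave 57 in T cells and 2 in all non-malignant cells. Leaving out vehicle replicate 1 gave 15 in malignant cells to 414 in Fibroblast. The 2 mice per group limit every comparison.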
